A study of Mus musculus with 2 samples.

Results

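Glycolysis, the pentose phosphate pathway and the citrate cycle were followed through 36 genes for sugar and lactate transport, the enzymes of these routes and the malate-aspartate shuttle. Members were the probe sets of the Affymetrix Mu11k chip pair, called subA and subB, whose symbol in the platform annotation is on that list, with the control probe sets left out. Of the 36 genes, 29 had a probe set, among 6137 genes named on the chips, and they had 23 probe sets on subA and 16 on subB. Gpi1, Pfkp, Aldoc, Eno1, G6pdx, Ogdh and Fh1 had none under their symbol and were not analysed here. The RNA came from purified CD4+ T cells of the spleen and lymph nodes of female B10.PL mice whose transgenic T-cell receptor recognises Ac1-11, a peptide of myelin basic protein, with 48 h given as the time. The labels give neither the age nor the number of the animals, and do not spell out TCL, which stands in the sample names. The series asks how cells stimulated with 4Y, a stimulus the labels do not describe, differ from cells stimulated with Ac1-11.

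For each chip the files hold the levels of 1 array and its comparison with 1 baseline array, whose own level follows from subtracting the deposited change. The deposited arrays carry the sample label Ac1-11, but their levels were identical to those that the authors' deposited table names 4Y. Which stimulus was higher is therefore not settled, and every value below is the deposited array over the baseline array of the same chip. There was no replicate, so no p-value can be given, and precision is limited by the number of arrays. All levels are average differences (perfect match minus mismatch probes), a background-corrected brightness that can fall below 0 and cannot be compared between genes. All folds, calls and probe pair counts are values of the authors' deposited table. A probe set was taken as detected if it was called present on the deposited array or was not marked absent on the baseline array. It counted as changed if it was detected, had a fold of at least 2 and had a difference call of increase or decrease. As a yardstick, detected probe sets of the same gene scattered with an SD of 0.46 in log2 fold on subA (251 genes with 2 probe sets) and 0.62 on subB (51 genes), which corresponds to folds of 1.37 and 1.54.

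Glycolysis splits glucose into pyruvate, which is either reduced to lactate and exported or passed to pyruvate dehydrogenase and the citrate cycle in mitochondria. The pentose phosphate pathway branches off at glucose 6-phosphate and supplies NADPH and ribose for nucleotides. T cells that leave rest raise glucose uptake and lactate output while they divide, a programme in which the transcription factors MYC and HIF-1 are known to induce many of these enzymes. Many steps are served by several isozymes with their own tissue pattern, so the chips show both which isozymes were detected and whether their levels differed between the arrays.

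Markers of CD4 T cells were detected throughout: 4 of 4 genes on subA (Cd3e, Cd247, Cd28 and Cd5) and 6 of 6 on subB (Cd3d, Cd3g, Cd247, Cd4, Thy1 and Cd2). Their summed level was 17949 on the deposited and 16134 on the baseline array of subA, and 102741 and 136789 on subB. The sums of subA rest mainly on Cd3e (13557 against 9955). On subB, Thy1 was the largest term (53164 against 63938), followed by Cd4 (19607 against 28344) and Cd3d (12774 against 23316). Only Cd2 read higher there (11959 against 11068). On subA, Cd28 was 1.6-fold lower with a decrease call and Cd247 1.3-fold lower without one. On subB, Cd3g (2.1-fold lower) counted as changed, and Cd3d (1.8) and Cd4 (1.4) were also called decreased. Cd8a, Cd79a, Cd22, Ms4a1, Csf1r, Adgre1 and Klrb1c were not detected. Of the other cell types' markers, Blk and Cd79b (B cells), Cd68 and Lyz2 (macrophages) were detected on subA, and Cd14 and Hba-a1 on subB. On subA the 2 macrophage genes summed to 5927 on the deposited and 2993 on the baseline array, with Lyz2 higher (5294 against 2286) and Cd68 lower (633 against 707), while the 4 B-cell genes summed to 2279 and 4082. The deposited fold of Lyz2 was 6.2 higher, with 7 pairs increased, 1 decreased and no difference call. Its levels give a ratio of 2.3, so the size of that fold is uncertain. On subB the 3 macrophage genes summed to -223 and 1312, with Cd14 at 1720 against 2809. The B-cell sum includes Cd22 (-467 against -128) and Ms4a1 (-643 against 254 and 1478 against 1466), which were not detected. The detected B-cell genes were Cd79b, at 471 against 772, and Blk, at 1387 against 1523 and 53 against 195. The macrophage sum of subB includes Csf1r (-1782 against -1350) and Adgre1 (-161 against -147), also not detected. The part of shifts in T-cell, B-cell or macrophage markers in the values below was not tested. In bulk RNA, fewer cells of a type and less RNA per cell cannot be told apart.

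None of the 39 member probe sets counted as changed. On subA, 20 of 23 were detected, beside 51.2% of all probe sets, and 0 changed, where 4.46% of all 3343 detected probe sets did. On subB, 13 of 16 were detected, beside 27.7%, and 0 changed, where the share over 1813 detected probe sets was 6.23%. With so few members these counts are near the background. A difference call without that fold was given to Pdha1 on subA and to 1 of 2 Pkm probe sets on subB, both decreases, which is 1 of 20 and 1 of 13 against 7.51% and 8.94% of all detected probe sets. On subA 16 of 20 detected member probe sets had folds below 1.5, and on subB 9 of 13, against 69.5% and 61.8% over the chips. Taking 1 probe set per gene, the one with the highest mean level, the median log2 fold was -0.14 over 19 genes on subA and -0.07 over 10 genes on subB, beside 0 over all detected probe sets of either chip. By the same choice, 14 of 19 member genes on subA (73.7%) and 8 of 10 on subB (80.0%) lay within 1 SD. Over all detected probe sets the shares were 60.5% and 68.6%, so a fold beyond 1 SD was common on either chip.

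**Figure D1:**
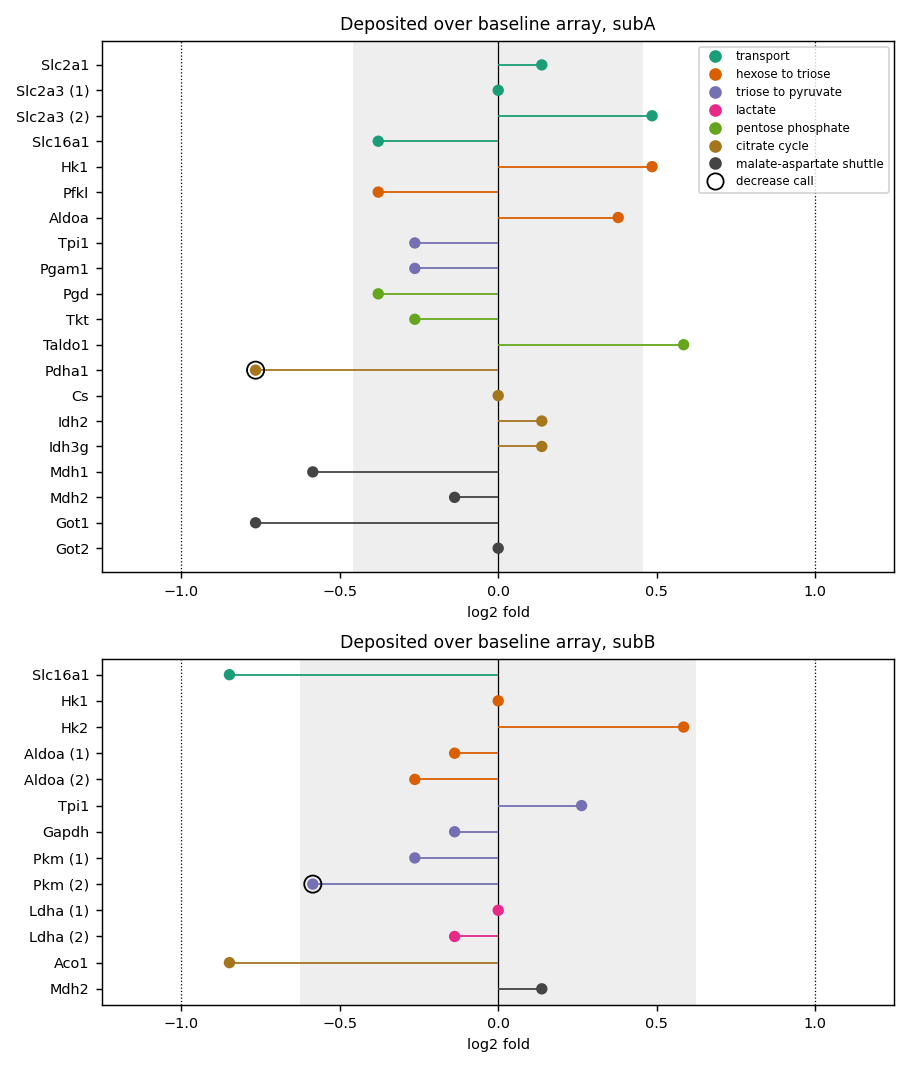
Log2 fold of the deposited over the baseline array for each detected member probe set on subA (top, 20) and subB (bottom, 13), coloured by role, with a number where a gene has several probe sets. The grey band is 1 SD between probe sets of the same gene (0.46 and 0.62), the dotted lines mark a fold of 2 either way, and rings mark the decrease calls of Pdha1 and Pkm; all points lie inside the dotted lines.

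Isozymes of the same step differed in detection. Among enzymes with alternative forms, the deposited array called present Hk1 and Hk2 (hexokinases), Pfkl (the liver-type phosphofructokinase), Aldoa (aldolase A), Pkm (pyruvate kinase M) and Ldha (lactate dehydrogenase A). The muscle-type Pfkm, the muscle enolase Eno3 and Ldhb, the lactate dehydrogenase subunit of heart, were detected on neither array, and nor were Pgk1 and Idh1. Over the 6 probe sets of these 5 genes, levels ran from -1278 to 288 on the deposited arrays and from -531 to 223 on the baseline arrays. Of their 6 folds, 5 are marked approximate in the authors' deposited table, among them 3.2 higher for Idh1 (226 against 24) and 2.8 lower for 1 of the 2 Ldhb probe sets, and none has a difference call. The only Pgk1 probe set read -70 and -47, so this step of glycolysis could not be followed.

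The glucose transporters differed little between the arrays, by less than 1 SD for 2 of their 3 probe sets. Slc2a1, which encodes GLUT1, the main glucose transporter of activated T cells, had a level of 1740 on the deposited and 1621 on the baseline array. Its deposited fold was 1.1 higher, while 1 probe pair of 20 was scored increased and 4 decreased, so fold and probe pairs pointed opposite ways. Slc2a3, which encodes GLUT3, had levels of 3286 and 3428 by 1 probe set, a fold of 1.0. The other Slc2a3 probe set read 1331 and 932, a fold of 1.4 higher with 6 pairs increased and 0 decreased.

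Slc16a1, which encodes MCT1, a carrier of lactate and pyruvate, was lower on the deposited array by each of its probe sets, 1 on each chip, without a difference call. On subA it read 278 and 364, a fold of 1.3 lower with 3 pairs increased and 4 decreased. On subB it read 1062 and 1944, a fold of 1.8 lower with 2 pairs increased and 6 decreased. The fold exceeded 1 SD between probe sets on subB (-0.85 on the log2 scale) but not on subA (-0.38).

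In the upper part of glycolysis the 2 hexokinases read higher or equal. Hk1 had levels of 20000 and 14221 on subA, a fold of 1.4 higher with 4 pairs increased and 0 decreased (0.49 on the log2 scale, just beyond 1 SD), and 28304 and 28171 on subB, a fold of 1.0 with no pair scored. Hk2, the form induced by growth signals, read 3551 and 2384 on subB, a fold of 1.5 higher with 4 pairs increased and 1 decreased, inside 1 SD for that chip. Pfkl, which commits sugar to glycolysis, read 3376 and 4341, a fold of 1.3 lower although 2 pairs were scored increased and 1 decreased.

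Aldoa, which cleaves fructose 1,6-bisphosphate into triose phosphates, differed in direction between the chips. On subA it read 17091 and 13438, a fold of 1.3 higher with 1 pair scored each way. On subB its 2 probe sets read 53132 and 57930 (a fold of 1.1 lower) and 66900 and 76962 (1.2 lower), with 3 pairs and 0 pairs decreased. None of these folds reached 1 SD.

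**Figure D2:**
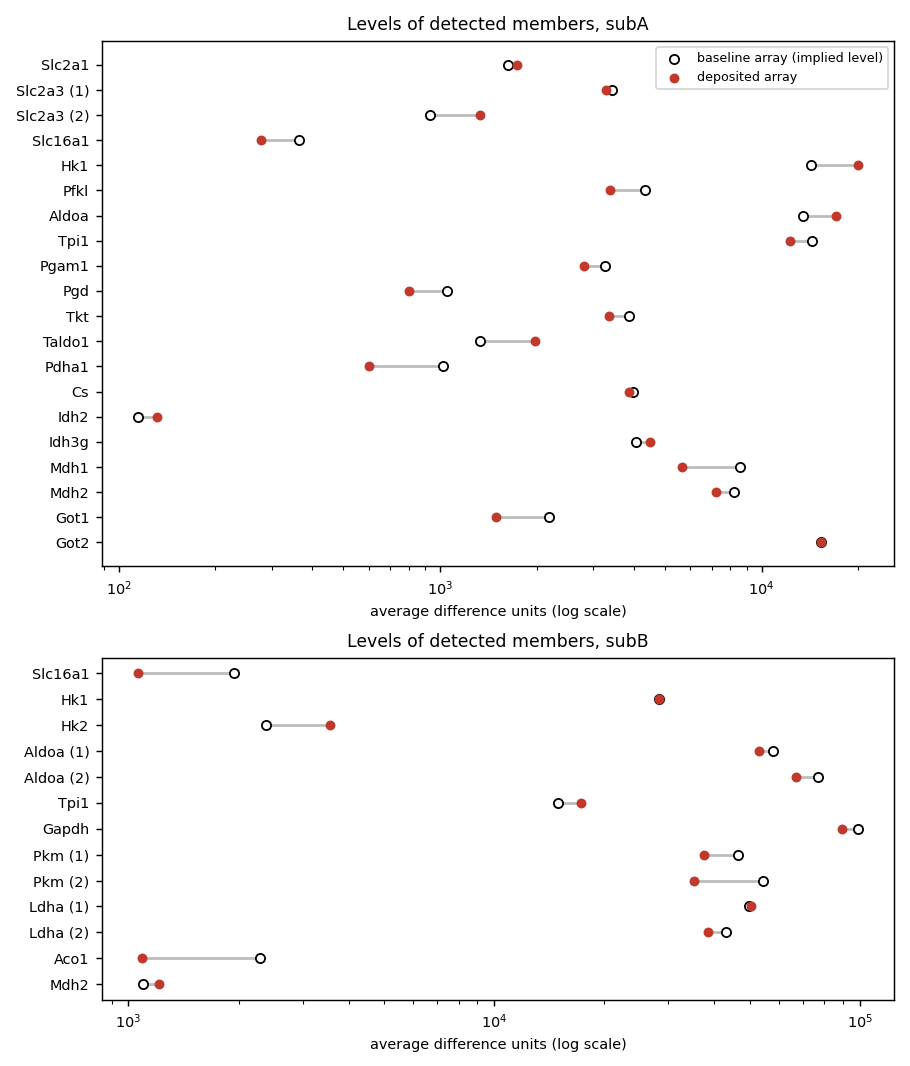
Level of each detected member probe set on the deposited array (red) and on the baseline array (open circle) of subA (top) and subB (bottom), in average difference units on a log axis. The symbols of Got2 on subA and Hk1 on subB coincide, and the widest gaps are those of Pdha1 on subA (601 and 1021) and Aco1 on subB (1088 and 2291).

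From triose phosphate to pyruvate, 4 of 6 detected probe sets were lower on the deposited array by 1.2-fold or less, 1 was higher and 1 had a decrease call. Tpi1, which interconverts the triose phosphates, read 12213 and 14358 on subA (1.2-fold lower) and 17313 and 14985 on subB (1.2-fold higher). Gapdh, the dehydrogenase that yields NADH, read 89541 and 99203 on subB, a fold of 1.1 lower with 1 of 20 pairs decreased. Pgam1, a phosphoglycerate mutase, read 2798 and 3267 on subA, a fold of 1.2 lower with 3 pairs decreased and 0 increased.

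Pkm, the last step of glycolysis, had the one difference call among glycolytic enzymes. Its probe set x97047_f_at read 35250 on the deposited and 54482 on the baseline array of subB, a fold of 1.5 lower with 7 of 20 pairs decreased and 0 increased. The other Pkm probe set read 37464 and 46561, a fold of 1.2 lower with 2 pairs decreased and no call. Both were lower, and neither deposited log2 fold (-0.58 and -0.26) exceeded 1 SD. The ratio of the levels of x97047_f_at was -0.63 on the log2 scale, just beyond the SD of 0.62. Whether it exceeds 1 SD therefore depends on which of the 2 is used. Ldha, which turns pyruvate into lactate, read 50327 and 49845 by 1 probe set (a fold of 1.0) and 38517 and 43176 by the other (1.1 lower, 1 pair decreased).

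In the pentose phosphate pathway, Pgd and Tkt read lower and Taldo1 higher, all on subA and without a call. Pgd, the oxidative step that releases NADPH and ribulose phosphate, read 798 and 1054, a fold of 1.3 lower with 3 pairs scored each way. Tkt, a transketolase of the non-oxidative branch, read 3351 and 3881, a fold of 1.2 lower with 1 pair decreased. Taldo1, the transaldolase of the same branch, read 1978 and 1334, a fold of 1.5 higher with 3 pairs increased and 2 decreased. The log2 fold of Taldo1, 0.58, exceeded 1 SD on that chip, but its probe pairs were nearly balanced.

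Where pyruvate enters mitochondria, Pdha1, the catalytic E1 alpha subunit of pyruvate dehydrogenase, was called decreased. It read 601 on the deposited and 1021 on the baseline array of subA, a fold of 1.7 lower with 7 of 20 pairs decreased and 0 increased. Its log2 fold of -0.77 was beyond 1 SD. Cs, the citrate synthase, read 3872 and 3978, a fold of 1.0, and Idh3g, a subunit of the NAD-dependent isocitrate dehydrogenase, read 4484 and 4068, a fold of 1.1 higher. Idh2, the mitochondrial NADP-dependent form, read 132 and 115 and was called absent on the deposited array. Aco1, the cytosolic aconitase that doubles as an iron-regulatory protein, read 1088 and 2291 on subB. Its deposited fold was 1.8 lower with 5 pairs decreased and 0 increased, no difference call, and an absent call on the deposited array. That fold (-0.85 on the log2 scale) was beyond 1 SD for subB. The ratio of its 2 levels was larger, -1.07 on the log2 scale, so the size of the difference is uncertain.

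The malate-aspartate shuttle carries the reducing power of cytosolic NADH into mitochondria by a pair of malate dehydrogenases and a pair of aspartate aminotransferases. Of its 4 genes, the 2 that encode the cytosolic enzymes had the larger folds on subA, both lower. Mdh1, the cytosolic malate dehydrogenase, read 5662 and 8543, a fold of 1.5 lower with 2 pairs decreased and 1 increased. Got1, the cytosolic aminotransferase, read 1498 and 2182, a fold of 1.7 lower with 4 pairs scored each way, and its baseline was marked absent although its level was the higher one. The mitochondrial partners lay nearer to 1: Mdh2 read 7197 and 8203 on subA (1.1-fold lower) and 1209 and 1094 on subB (1.1-fold higher), and Got2 read 15281 and 15270 (1.0) with no pair scored. The log2 folds of Mdh1 (-0.58) and Got1 (-0.77) were beyond 1 SD, and neither gene had a difference call.

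Probe pairs gave a second view of the same arrays. The median detected member probe set had 15% of its pairs scored as increased or decreased on each chip, where the median over all detected probe sets was 25% (subA) and 30% (subB). On subA 9 member probe sets had more pairs decreased than increased, 6 the reverse and 5 a tie, so that 45.0% had more decreased pairs, near the 40.9% of the chip. On subB the numbers were 9, 2 and 2, which is 69.2% with more decreased pairs, beside 43.6% over the chip. The share over the chip is not matched for level. Of the 13 member probe sets, 7 were among the brightest 5% detected on subB, which centred on a log2 fold of -0.26. Aldoa, Pkm and Ldha each count there by 2 probe sets. The part of level in the 69.2% was not tested. Fold and pairs pointed opposite ways for Slc2a1, Pfkl and Idh2 on subA and for Mdh2 on subB. The pairs of a probe set share 1 RNA and 1 array and are not replicates.

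**Figure D3:**
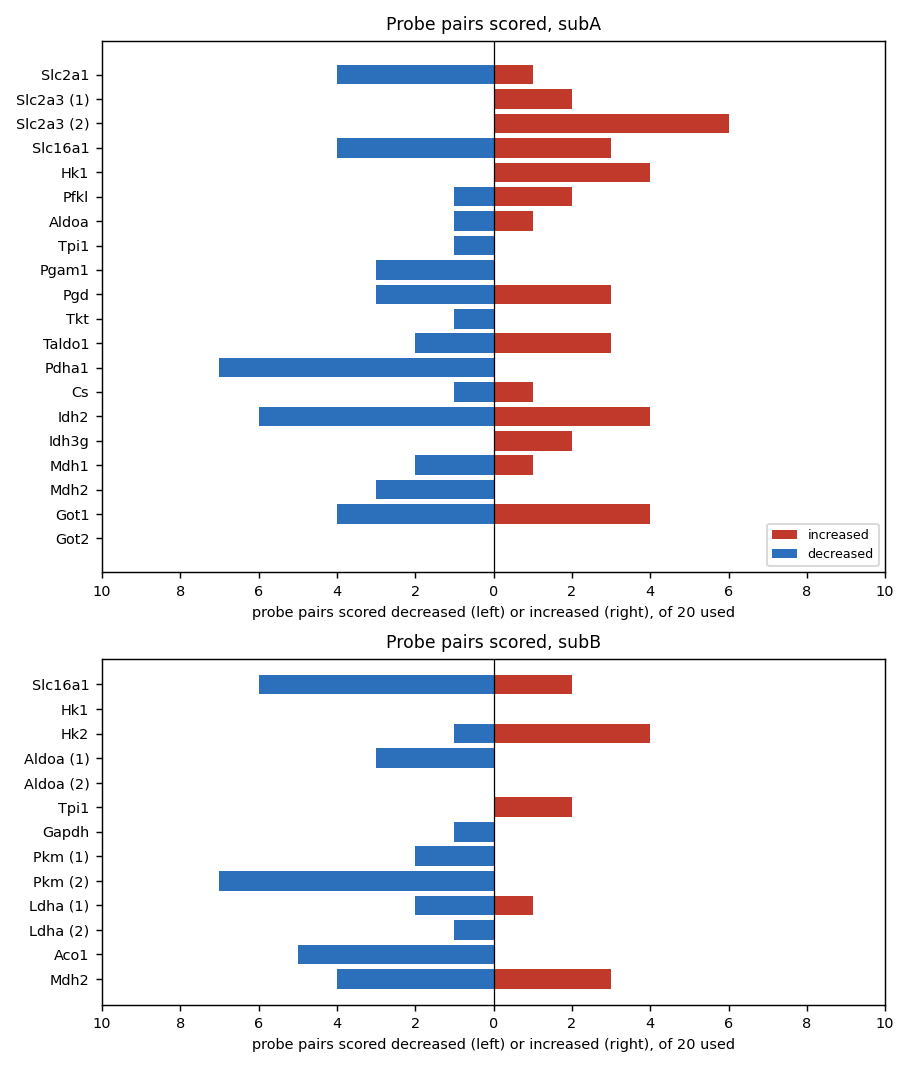
Number of probe pairs scored decreased (blue, left) or increased (red, right) of the 20 used, for each detected member probe set on subA (top) and subB (bottom). Pdha1 and the second Pkm probe set have 7 pairs decreased and 0 increased, while Got2 on subA and Hk1 on subB have none scored.

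The chips could be set side by side for the 5 members detected on both. Hk1 had folds of 1.4 higher on subA and 1.0 on subB, Mdh2 of 1.1 lower and 1.1 higher, and Tpi1 of 1.2 lower and 1.2 higher. Aldoa was 1.3-fold higher on subA and lower by both probe sets of subB. Slc16a1 was lower on both. Thus 3 of the 5 had opposite directions, and none had a difference call. The probe sets of a gene on the 2 chips are not the same, and many can detect related sequences: 17 of the 39 member probe sets bear the suffix _f_at, which Affymetrix used for sequence families, and 21 the suffix _s_at, for probes shared with similar transcripts. Values of genes with close copies or processed pseudogenes, such as Gapdh, Pkm, Ldha, Aldoa and Tpi1, are uncertain for that reason.

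Part of the small folds ran with the level. On subA, the brightest 5% of detected probe sets (168) centred on a log2 fold of 0.38 (median), and 4 member probe sets (Hk1, Aldoa, Tpi1 and Got2) were among them. On subB the brightest 5% (91 probe sets) centred on -0.26, and 7 member probe sets lay there, for Aldoa, Gapdh, Pkm and Ldha. With a running median over 300 detected probe sets ordered by level removed, the members' median log2 fold was -0.26 on subA, with 5 genes above 0 and 11 below. On subB it turned from -0.07 to 0.13, with 6 above and 3 below. Gapdh, both Ldha probe sets and the first Aldoa probe set of subB then lay above 0, at 0.13 to 0.26, and Tpi1 on subA moved from -0.26 to -0.64. Hk1 on subA moved from 0.49 to 0.11, inside 1 SD. Hk2 on subB moved the other way, from 0.58 to 0.65, beyond 1 SD for that chip. Of the malate-aspartate shuttle genes on subA, 0 then lay above 0 and 4 below. Got2 moved from 0 to -0.38 and Mdh2 from -0.14 to -0.28, while Mdh1 (-0.58) and Got1 (-0.77) stayed as they were. The 3 Gapdh control probe sets with the suffix _at, which are not members, were 1.5- to 1.6-fold higher with increase calls on subA and between 1.1-fold lower and 1.1-fold higher on subB. The 3 such control probe sets of beta-actin, which is not a gene of these routes, were 1.6- to 1.9-fold higher with increase calls on subA. On subB they were 1.0- to 1.3-fold lower without a call. The level of the 3' over the 5' Gapdh control probe set was 0.83 on the deposited and 0.85 on the baseline array of subA, and 0.85 and 0.77 on subB.

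**Figure D4:**
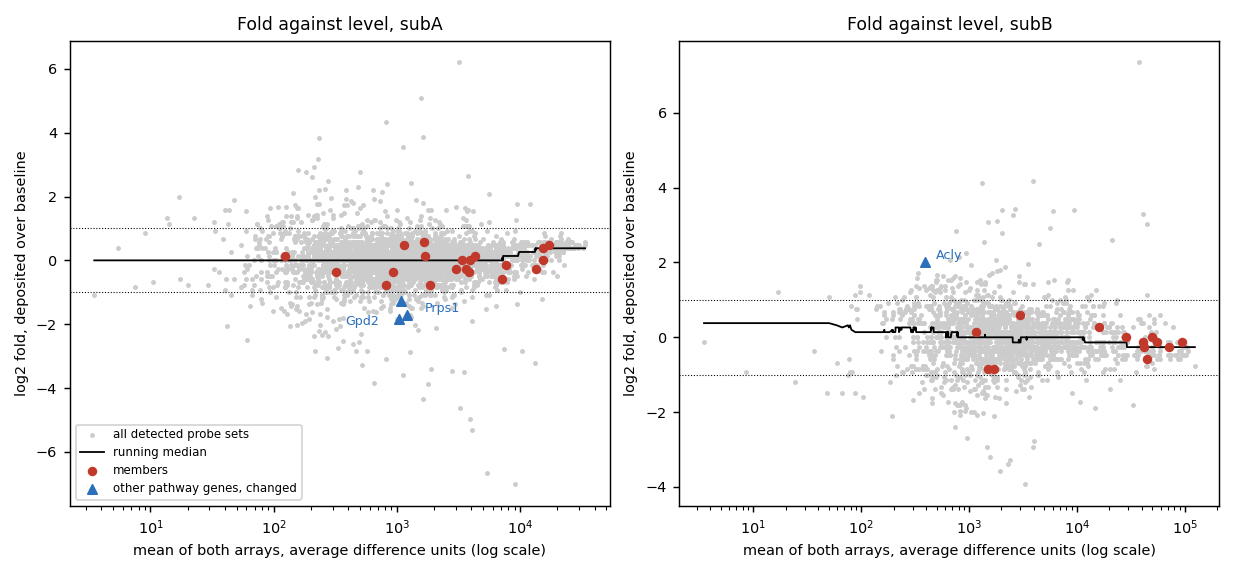
Log2 fold against the mean level of both arrays (log axis) for detected probe sets with a mean level above 0, on subA (left) and subB (right). Members are red, other pathway genes that counted as changed are blue triangles (Prps1, by 2 probe sets, and Gpd2 lower on subA, Acly higher on subB), the black line is the running median over 300 probe sets and the dotted lines mark a fold of 2; no red point lies beyond them.

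Genes that lie next to these routes did hold changed probe sets. Of 63 further genes of sugar, pyruvate, citrate cycle and shuttle metabolism, 32 had a probe set and 19 were detected. On subA 2 of 18 counted as lower, where 2.69% of all detected probe sets did, and none as higher. The count is by gene and the share by probe set, and with so few genes a difference from the members was not tested. Prps1, which joins ribose 5-phosphate to pyrophosphate for nucleotide synthesis, read 567 on the deposited and 1847 on the baseline array by c78306_rc_at, a fold of 3.3 lower with 16 of 20 pairs decreased and 1 increased. Its probe set c78306_rc_g_at, which bears the same accession, read 623 and 1519 (2.4-fold lower, 12 pairs decreased and 0 increased), and c76678_rc_f_at read 240 and 499 (2.4-fold lower, 7 pairs decreased, no call). All 3 were lower by more than 1 SD. Gpd2, the mitochondrial glycerol 3-phosphate dehydrogenase of the other NADH shuttle, read 446 and 1625, a fold of 3.6 lower with 14 pairs decreased and 0 increased. Its level on the deposited array was called absent, so the size of that fold is uncertain.

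On subB 1 of 2 detected genes counted as higher, where 4.25% of all detected probe sets did. This was Acly, which turns exported citrate into acetyl-CoA for lipid synthesis, with 1007 on the deposited and -228 on the baseline array. Its deposited fold of 4.0 is marked approximate, with 7 pairs increased and 1 decreased. On subA, Acly read 4413 and 5497, a fold of 1.2 lower without a call. The other detected genes with the highest levels on subA had no difference call. Sdhb, of succinate dehydrogenase, read 6045 and 5788 (1.0), and Slc25a1, the mitochondrial citrate carrier, 4268 and 4902 (1.1 lower). Suclg1, of succinate-CoA ligase, read 2742 and 3827, a fold of 1.6 lower with 4 pairs decreased, which is beyond 1 SD (-0.68 on the log2 scale). On subB, Pfkfb2, which makes and removes the activator of phosphofructokinase, read 2640 and 1813 (1.5 higher, no call). Forms typical of other tissues were detected in part. Slc2a2 and Slc2a4 (glucose transporters of liver and muscle), Ldhc (testis), Bpgm (erythrocytes), and Fbp1 and G6pc (gluconeogenesis in liver) were not detected. Not detected either were Dlat, of pyruvate dehydrogenase (-451 against -380), and Sdhd, of succinate dehydrogenase (-202 against 164). The same held for Pcx, Pck2, Slc25a13, Gpd1 and Tktl1, so lack of detection was not confined to such forms. Fbp2, the fructose bisphosphatase of muscle, was called present on the deposited array with 206 against 109 (1.9-fold higher over a baseline marked absent, no call), and Eno2, the enolase of neurons, was not marked absent on the baseline array (107 against 97, 1.0).

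Among regulators of these genes, 12 of 19 had a probe set and 6 were detected. Myc read 1973 on the deposited and 2248 on the baseline array of subA, a fold of 1.1 lower, and Max, its partner, was 1.1-fold lower on subA and 1.5-fold lower on subB. Hif1a, the oxygen-regulated subunit of HIF-1, read 3467 and 5684, a fold of 1.6 lower with 6 pairs decreased and 0 increased but no difference call. Epas1, which encodes the related HIF-2 alpha, counted as higher by d89787_at (2577 and 1275, 2.0-fold, 12 pairs increased) and had no call by d89787_g_at (5009 and 4059, 1.2-fold). Prkag1, a subunit of AMP-activated kinase, and Akt1, a kinase that promotes glucose uptake, were 1.0- and 1.1-fold lower.

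The DNA upstream of the members was read to see where the sequences that MYC and HIF-1 bind could lie. The 250 bases before the start of each gene were taken from RefSeq (GRCm38.p6) and searched on both strands for the HIF core ACGTG, its other form GCGTG, and the E-box CACGTG, which contains ACGTG. Shown are Pdha1 and Pkm, the members with a decrease call, and Slc16a1, the member that read lower on both chips. Capitals mark the matches, and the sequences run 5′ to 3′ on the gene's strand. Pkm has 2 annotated starts.
Pdha1, chrX:160138431-160138680, minus strand: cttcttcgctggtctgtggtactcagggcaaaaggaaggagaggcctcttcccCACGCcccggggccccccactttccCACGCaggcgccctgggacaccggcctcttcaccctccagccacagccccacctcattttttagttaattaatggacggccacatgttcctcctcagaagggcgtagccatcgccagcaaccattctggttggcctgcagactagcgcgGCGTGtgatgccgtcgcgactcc
Pkm, first start, chr9:59656326-59656575, plus strand: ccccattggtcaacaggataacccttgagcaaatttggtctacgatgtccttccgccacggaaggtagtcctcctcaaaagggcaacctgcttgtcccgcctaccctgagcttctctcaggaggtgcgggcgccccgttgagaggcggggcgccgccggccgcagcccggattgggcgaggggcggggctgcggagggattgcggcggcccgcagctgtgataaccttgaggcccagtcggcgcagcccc
Pkm, second start, chr9:59656977-59657226, plus strand: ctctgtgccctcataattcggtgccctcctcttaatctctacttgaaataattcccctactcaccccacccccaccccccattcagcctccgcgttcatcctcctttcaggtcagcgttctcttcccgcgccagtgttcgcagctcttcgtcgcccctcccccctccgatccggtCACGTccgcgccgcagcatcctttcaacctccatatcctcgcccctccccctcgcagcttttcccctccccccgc
Slc16a1, chr3:104638414-104638663, plus strand: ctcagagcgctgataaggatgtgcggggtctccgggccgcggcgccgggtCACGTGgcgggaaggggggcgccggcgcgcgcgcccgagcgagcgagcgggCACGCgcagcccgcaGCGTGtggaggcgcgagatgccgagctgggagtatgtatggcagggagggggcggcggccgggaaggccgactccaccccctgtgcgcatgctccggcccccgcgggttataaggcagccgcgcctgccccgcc

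The Pdha1 window holds GCGTG at 3 places and ACGTG at 0. The first Pkm window holds none of these motifs and the second holds ACGTG once, read on the opposite strand. The Slc16a1 window holds a CACGTG, which reads as ACGTG on either strand, and GCGTG at 2 places. Over the 53 windows of the 35 members with an entry, ACGTG stood in 35.8%, GCGTG in 62.3% and CACGTG in 11.3%, beside 16.6%, 28.2% and 6.02% of all 32851 windows of the same length. The members' windows were also richer in G and C, with a median of 59.6% beside 52.4%, and the part of base composition in these shares was not tested. Ldha, Slc16a1, Ogdh and Pfkm had a window with CACGTG, of which Ldha had folds of 1.0 and 1.1 lower, Pfkm was not detected and Ogdh had no probe set. A match is a run of letters and does not show that a factor binds there.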

How the data were processed

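The authors hybridised biotinylated cRNA of CD4+ T cells to the Mu11k chips, per the labels. The deposited levels are array intensity values in average difference units, and the comparison tables repeat every one of them (6584 on subA, 6595 on subB). Per the file headers, the deposited comparison gives a signed fold, calls and probe pair counts, with the columns of Affymetrix 2-array software. Its version, noise settings and scaling are not given in the sources used here. The change in log average, a deposited score, was not used in the text.

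Probe sets were named by the platform annotation, which gave 1 symbol to 5541 probe sets on subA and 2001 on subB, several to 197 and 27 (none named) and no symbol to 791 and 4512, with 55 controls on each chip left out. Signed folds were turned into log2 values, and folds marked approximate were kept. Members, lists and rules were chosen with earlier results of these data known. All members were named. Other pathway genes were named if changed or among the 4 with the highest level per chip. The forms typical of other tissues and the further genes not detected were named after their values were seen. Columns of other samples numbered 0. The counting rule and the running median were tested on simulated data, with noise smaller than the spread between probe sets and calls set from the simulated folds. That test checks the code and not how the rule behaves on these arrays. Python 3.11.15, pandas 2.3.3, NumPy 2.4.6 and matplotlib 3.10.9 were used.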

Additional observations from a re-analysis of the deposited data

How the results depend on the processing

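The settings tried were fold thresholds of 1.5 and 3, marginal calls counted, presence on the deposited array, on both arrays or not required, median centring, a running median removed, ratios of levels floored at 20 or 200, approximate folds left out, other choices among probe sets of a gene, and the sign of subB turned. The 0 changed members became 1 on each chip at a threshold of 1.5 (Pdha1 and Pkm) and stayed 0 otherwise. For subA this was 1 of 20, where 7.03% of everything detected on the chip changed at 1.5. For subB it was 1 of 13, where that share was 8.33%, so both member counts were near the background. The changed probe sets of subA went from 149 to 235 at 1.5, 66 at 3 and 92 with presence on both arrays. Those of subB went from 113 to 151 at 1.5, 46 at 3 and 48 with presence on both arrays. They numbered 176 with no filter on presence and 66 without approximate folds. The members' median log2 fold ran from -0.26 to -0.07 on subA and from -0.10 to 0.13 on subB, within 1 SD between probe sets. The settings for the neighbouring genes and regulators were added after seeing the data. The 2 lower genes of subA became 1 (Prps1) with presence required on the deposited array or on both, since Gpd2 was called absent, the 1 higher gene of subB became 0 without approximate folds, and the 1 regulator became 0 at a threshold of 3. Of 371 recomputed values of single member probe sets, 365 moved by less than 1 SD and kept their side of the counting rule. Most of these values could not move. Thresholds, marginal calls, presence filters, median centring and leaving out approximate folds do not alter the log2 fold of a detected member. Only the running median, the floored ratios and the turned sign do, so the count is no measure of precision. The 6 values that moved or changed side were Pdha1 and Pkm at 1.5, and Aco1, Pkm, Hk2 and Slc16a1 with the sign of subB turned, which reverses every direction of that chip. No paired analysis was possible because each chip had 1 array with deposited levels and no replicate. Signals not told from background limit what can be said of Pgk1, Idh1, Pfkm, Eno3 and Ldhb.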
